A study of Rattus norvegicus with 4 samples.

Results

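The myosin light chain genes Myl1, Myl2, Myl3, Myl4 and Mylpf were described on 4 oligonucleotide arrays of rat skeletal muscle. They were taken by gene symbol from the platform annotation, in which 4 of the 5 members are listed by the names above. Mylpf is listed there as Myl11, a name that the RefSeq gene table gives with Mylpf as its synonym under the same gene identifier. The 5 genes had 6 probe sets, Myl2 having 2 and the others 1 each, of 14218 genes with a probe set of their own. All 5 were among the 10092 genes that lay above the floor, a signal of 30.1, on at least 1 array and that are called compared genes here. Each was represented by its brightest probe set.

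The study asked how muscle contraction changes an ischemic hindlimb in rats that model intermittent claudication, pain in the legs during walking when their blood supply is narrowed. Rats of the F344/DuCrlCrlj strain gave 4 arrays, 1 per group: sham, ischemia, ischemia + ES (electrical stimulation that makes the muscle contract through its nerve) and ischemia + exercise. Both treated groups carried the ischemia as well, and sham alone did not. Age, sex, the muscle taken, the number of animals behind an array and the timing of each treatment are not known here. With 1 array per group there is no replicate error, so every difference below is one between 2 arrays and has no p-value.

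Sarcomeric myosin is a pair of heavy chains, each of which carries 1 essential and 1 regulatory light chain on its lever arm. The essential chain stiffens the lever arm, and the regulatory chain can be phosphorylated by a calcium-activated kinase, which raises force at a given calcium level. Slow fibres use Myl2 as regulatory and Myl3 as essential chain, both shared with the ventricle of the heart. Fast fibres use Mylpf as regulatory chain and, as essential chains, the products of Myl1, which is transcribed from an upstream start and from an internal start. Myl4 encodes the essential chain of embryonic muscle and of the atrium.

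The 250 bases before the transcription starts of 4 of the 5 genes are shown because the slow gene Myl3, the fast genes and the embryonic gene Myl4 differed in signal in different ways across the arrays. They are from RefSeq (build GRCr8), 5′ to 3′ on the strand of the gene. Capitals mark matches on either strand to TATAAA, to the MCAT letters CATTCC, to a MEF2 site or to a CArG box. The Myl3 sequence (slow essential chain) is chr8:119616844-119617093, plus strand, the Mylpf sequence (fast regulatory chain) chr1:191260039-191260288, plus strand, and the Myl4 sequence chr10:89975900-89976149, plus strand. The sequences of Myl1 (fast essential chain) are chr9:75907697-75907946 for the upstream start and chr9:75897800-75898049 for the internal start, both on the minus strand.
Myl3: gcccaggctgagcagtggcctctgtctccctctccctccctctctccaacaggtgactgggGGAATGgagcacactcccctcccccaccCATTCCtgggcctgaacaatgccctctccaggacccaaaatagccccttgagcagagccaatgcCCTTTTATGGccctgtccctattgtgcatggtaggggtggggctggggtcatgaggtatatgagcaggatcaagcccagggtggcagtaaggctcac
Mylpf: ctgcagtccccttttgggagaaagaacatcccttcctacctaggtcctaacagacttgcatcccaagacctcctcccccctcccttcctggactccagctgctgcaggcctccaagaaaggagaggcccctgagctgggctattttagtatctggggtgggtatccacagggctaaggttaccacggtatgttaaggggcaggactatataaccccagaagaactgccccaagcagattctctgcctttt
Myl4: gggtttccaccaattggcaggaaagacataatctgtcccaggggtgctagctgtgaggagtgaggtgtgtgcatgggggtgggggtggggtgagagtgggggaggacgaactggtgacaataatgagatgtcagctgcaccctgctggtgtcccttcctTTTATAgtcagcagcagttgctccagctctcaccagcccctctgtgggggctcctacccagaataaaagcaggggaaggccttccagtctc
Myl1, upstream start: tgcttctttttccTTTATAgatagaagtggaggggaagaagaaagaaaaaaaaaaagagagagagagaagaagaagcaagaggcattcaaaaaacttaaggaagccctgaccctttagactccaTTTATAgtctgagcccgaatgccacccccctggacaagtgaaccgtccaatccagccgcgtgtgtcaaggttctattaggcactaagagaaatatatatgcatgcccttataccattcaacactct
Myl1, internal start: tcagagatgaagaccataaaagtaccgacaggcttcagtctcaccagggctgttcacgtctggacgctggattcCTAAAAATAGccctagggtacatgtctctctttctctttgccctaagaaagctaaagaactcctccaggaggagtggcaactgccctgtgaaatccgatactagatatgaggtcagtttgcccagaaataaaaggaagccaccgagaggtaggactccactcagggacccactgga

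The Myl3 sequence held 1 CArG box, the kind of site that serum response factor binds, with its first base at -97, where -1 is the base just before the start. CArG boxes were found in 501 of all 33469 promoter sequences of this length. Myl3 also held 2 MCAT matches, at -189 and -161, a motif that 12.1% of the promoters held and that TEAD factors bind. The internal start of Myl1 had 1 MEF2 site, at -176, a motif present in 0.523% of the promoters. TATAAA occurred at -91 in Myl4 and at -237 and -126 before the upstream start of Myl1, in each case on the other strand, and in 12.9% of the promoters. The E-box letters CANNTG, a site of myogenic basic helix-loop-helix factors, are not capitalised. They occurred 3 times in Myl4 and 1 time in each of the other 4 sequences, and 65.5% of all promoters had at least 1. No match overlapped another, and only the E-box was matched in the Mylpf sequence. A match is a run of letters and no measured site.

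Each array had a 2% trimmed mean of 150.1, a value set by the scaling, which therefore does not show that the arrays were alike. Among the 31099 probe sets, the share that exceeded the floor was lowest in sham (49.3%) and highest with ES (51.1%). A share near 50% follows from a floor at the 50th percentile, so only the spread between arrays was free to vary. The signal of the 3′ probe set over that of the 5′ one is a measure of RNA integrity. For actin it ran from 3.81 (ischemia) to 4.38 (sham) on 3 arrays and was 5.94 with ES, so it was highest on the ES array. For Gapdh it was nearer 1 on every array, at 1.16 in sham, 1.04 with ischemia, 1.26 with ES and 1.16 with exercise. All 8 markers of skeletal muscle fibres (Acta1, Ckm, Des, Ttn, Neb, Mb, Actn2 and Actn3) were above the floor on every array, with a summed signal between 72527 (ischemia) and 83763 (ES). Of 8 heart muscle markers, between 0 and 2 were above the floor on an array, and the atrial marker Nppa was below it on all 4. The Myl2, Myl3 and Myl4 signals below thus stood beside skeletal muscle markers at high and heart markers at or near background signal.

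**Figure D1:**
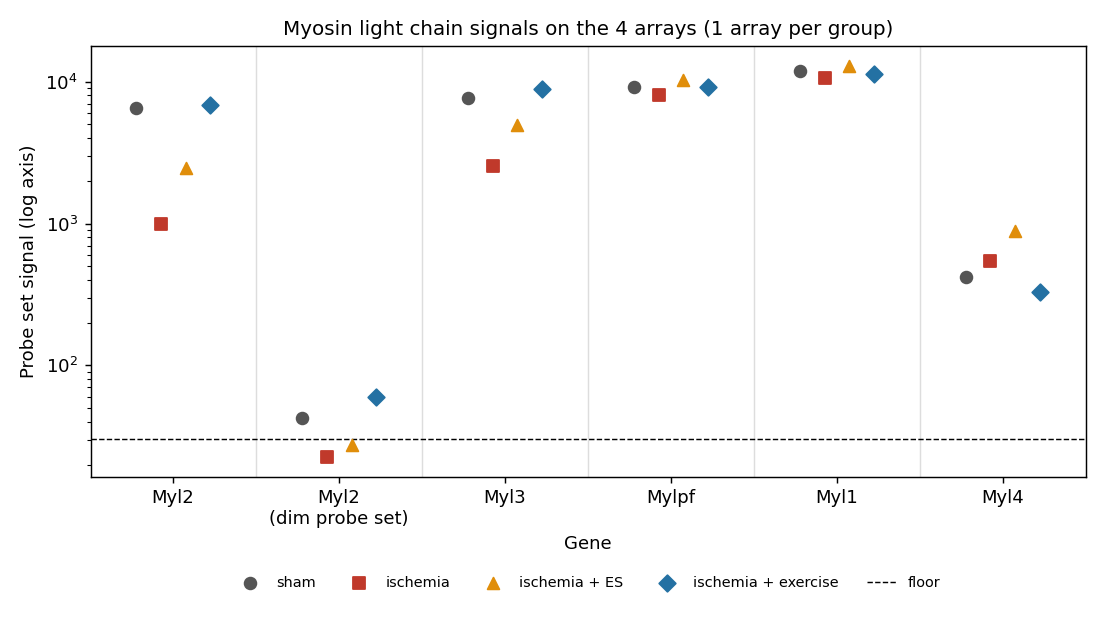
Probe set signal (log axis) of the 6 probe sets of the 5 myosin light chain genes, 1 point per array, with the floor of 30.1 as a dashed line. Myl2 and Myl3 are high on the sham and exercise arrays and lowest with ischemia, Mylpf and Myl1 lie close together on all 4 arrays, and Myl4 is highest with ES.

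The members fell into 3 kinds by how far they ranged over the 4 arrays and by which arrays were highest and lowest. The highest signal was 6.85 times the lowest for Myl2, 3.51 times for Myl3 and 2.70 times for Myl4, against 1.28 times for Mylpf and 1.22 times for Myl1. A range of at least 2-fold was thus seen in 3 of 5 members and in 8.08% of the compared genes (815 of 10092). Both slow genes were lowest on the ischemia array and highest with exercise. Both fast genes were lowest with ischemia and highest with ES, within a narrow range, and Myl4 was lowest with exercise and highest with ES.

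Myl2, the slow regulatory chain, had a signal of 6516 in sham, 995 with ischemia, 2455 with ES and 6814 with exercise on its brightest probe set. The sham and exercise arrays were high and close together, ischemia was low, and ES lay between. The signal was 6.55-fold lower with ischemia than in sham, a log2 ratio of -2.71 and rank 11 from the lowest of 10092 compared genes. Against ischemia it was 6.85-fold higher with exercise, rank 15 from the highest, and 2.47-fold higher with ES, rank 87 from the highest. The ES array remained 2.65-fold below sham and 2.77-fold below exercise, while exercise and sham were within 1.05-fold of each other. Fewer slow fibres in the tissue and less slow myosin RNA per fibre cannot be told apart in these samples.

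The other probe set of Myl2 was dim, with signals of 42.5 in sham, 22.6 with ischemia, 27.3 with ES and 59.9 with exercise. It lay above the floor on the sham and exercise arrays alone, as the plot of signals by gene shows. Its differences from sham to ischemia and from sham to ES were therefore bounds, at least 1.41-fold lower in each case, and that from ischemia to exercise at least 1.99-fold higher. Between ischemia and ES both values were under the floor and have no order. With the mean of both probe sets in place of the brightest, the log2 ratios of Myl2 were -1.60 for ischemia against sham, 1.88 for exercise against ischemia, 0.65 for ES against ischemia and -0.95 for ES against sham, the last 2 of them short of 2-fold. The dim probe set entered these means at the floor on the ischemia and ES arrays, which pulls the ratios toward 0 by construction. For ES against ischemia it was at the floor on both and added a ratio of 0, so the loss of 2-fold there was set by the floor.

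Myl3, the slow essential chain, had a signal of 7677 in sham, 2550 with ischemia, 4967 with ES and 8949 with exercise. The order of the arrays was that of Myl2, with exercise above sham, ES next and ischemia lowest. Myl3 was 3.01-fold lower with ischemia than in sham, a log2 ratio of -1.59 and rank 32 from the lowest. With exercise it was 3.51-fold higher than with ischemia, rank 37 from the highest. ES gave a signal 1.95-fold above ischemia, just short of 2-fold, and 1.55-fold below sham. Exercise stood 1.17-fold above sham, inside the 2-fold bounds.

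On their brightest probe sets, the 2 slow chains did not differ by equal amounts between arrays. The log2 ratio of Myl2 minus that of Myl3 was -1.12 for ischemia against sham and 0.96 for exercise against ischemia. For ES against ischemia it was 0.34. The dim probe set of Myl2, at the floor on the ischemia and ES arrays, gives no measured ratio against which these 3 gaps could be checked.

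Mylpf, the fast regulatory chain, had a signal of 9174 in sham, 8072 with ischemia, 10319 with ES and 9106 with exercise. The 4 values lay within 1.28-fold of each other, and sham and exercise were within 1.01-fold. Its log2 ratio was -0.18 for ischemia against sham, 0.35 for ES against ischemia and 0.17 for exercise against ischemia.

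Myl1, the fast essential chain, had a signal of 11807 in sham, 10684 with ischemia, 12999 with ES and 11293 with exercise, within 1.22-fold. The order of the arrays for Myl1 was ES, sham, exercise and ischemia from high to low, as for Mylpf. Its log2 ratio was -0.14 for ischemia against sham, 0.28 for ES against ischemia and 0.08 for exercise against ischemia, the last one -0.01 under quantile normalization and -0.06 with the arrays scaled to the fibre markers. Which of its 2 starts the single probe set reads was not tested. The differences of the 2 fast chains tracked each other closely, with log2 ratios that differed by 0.09 units or less in all 6 comparisons. Both lay near the top of the signal range, with 0.0482% of all probe sets brighter than Myl1 and 0.196% brighter than Mylpf. Whether bright signals were compressed was not tested.

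Set against their fast counterparts, the slow chains differed by much more between arrays. Of the regulatory chains, the log2 ratio of Myl2 minus that of Mylpf was -2.53 for ischemia against sham, 2.60 for exercise against ischemia and 0.95 for ES against ischemia. Of the essential chains, that of Myl3 minus that of Myl1 was -1.45, 1.73 and 0.68 in the same order. These are differences of ratios, so they do not depend on how the arrays are scaled by a constant.

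Myl4, the embryonic and atrial essential chain, had a signal of 419 in sham, 546 with ischemia, 887 with ES and 329 with exercise. ES was high, ischemia came next, and sham and exercise were low, an order unlike that of the slow chains. Against ischemia, Myl4 was 1.63-fold higher with ES and 1.66-fold lower with exercise, both inside 2-fold. The ES array was 2.70-fold above the exercise array, rank 74 from the highest of the compared genes, and 2.12-fold above sham. Ischemia was 1.30-fold above sham and exercise 1.27-fold below it. With the arrays scaled to the median of the 8 fibre markers, the log2 ratio of ES against sham was 0.96 in place of 1.08 and no longer reached 2-fold.

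**Figure D2:**
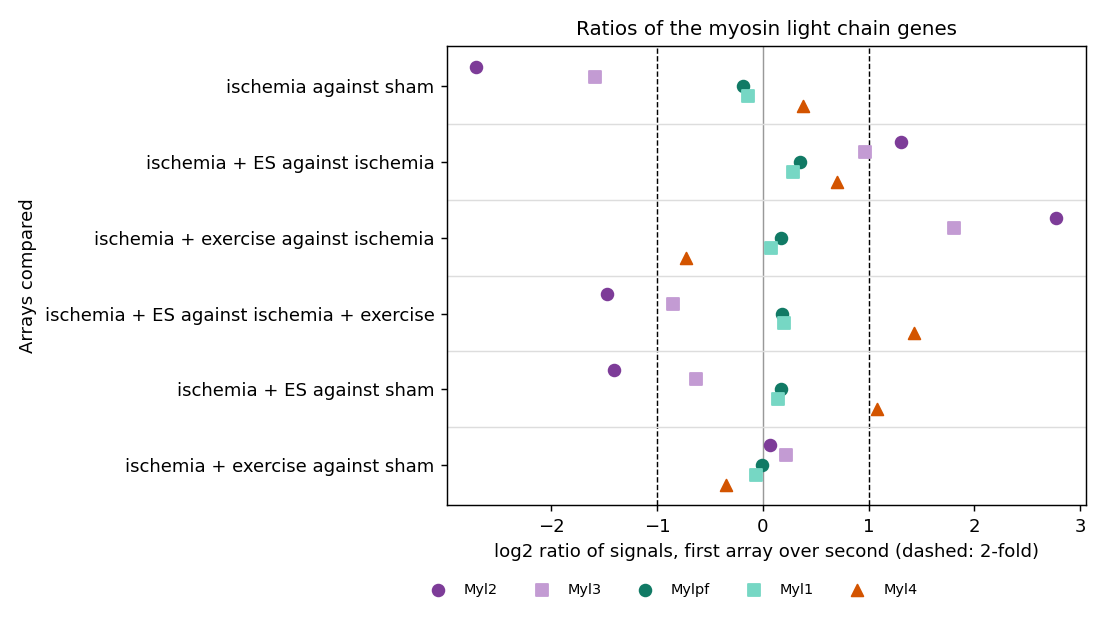
Log2 ratio of signals between 2 arrays for the 5 myosin light chain genes in 6 comparisons, 1 point per gene, with dashed lines at 2-fold. Myl2 and Myl3 lie below -1 for ischemia against sham and above 1 for exercise against ischemia, Mylpf and Myl1 stay near 0, and all 5 points lie inside the dashed lines for exercise against sham.

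Counted per comparison, 2 of 5 members (Myl2 and Myl3) were past 2-fold lower with ischemia than in sham, where 0.862% of all compared genes were, and 0 were higher (0.783%). In either direction 1.64% of compared genes passed. The members' median log2 ratio was -0.18 and that of all compared genes 0.00. For exercise against ischemia 2 members, again Myl2 and Myl3, were past 2-fold higher (1.14% of compared genes) and 0 lower (0.872%, and 2.01% in either direction), with a median of 0.17 against 0.00. The comparisons of ES and exercise with ischemia, and that of ischemia with sham, share the ischemia array, so they are not independent of each other.

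For ES against ischemia Myl2 alone passed 2-fold higher (2.28% of compared genes) and 0 members were lower (0.793%, and 3.07% in either direction). All 5 members had ratios above 0, and their median was 0.70 against 0.05 for all compared genes. They were also above 0 under quantile normalization, cyclic loess normalization and scaling to the fibre markers, the settings that shift whole arrays, with 0.03 for Myl1 under the last as the lowest value. The 3′ to 5′ measures of actin (5.94) and Gapdh (1.26) were highest on the ES array too, and their part in these ratios was not tested.

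The ES and exercise arrays differed in the slow and embryonic chains. For ES against exercise Myl4 was past 2-fold higher (2.95% of compared genes) and Myl2 past 2-fold lower (1.1%, and 4.05% in either direction), while Myl3 was 1.80-fold lower. For ES against sham Myl4 was again higher (3.78%) and Myl2 lower (1.06%, and 4.84% in either direction). For exercise against sham 0 of 5 members were past 2-fold in either direction, where 0.446% of compared genes were (0.258% higher and 0.188% lower). The members' ratios there ran from -0.35 (Myl4) to 0.22 (Myl3) in log2.

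**Figure D3:**
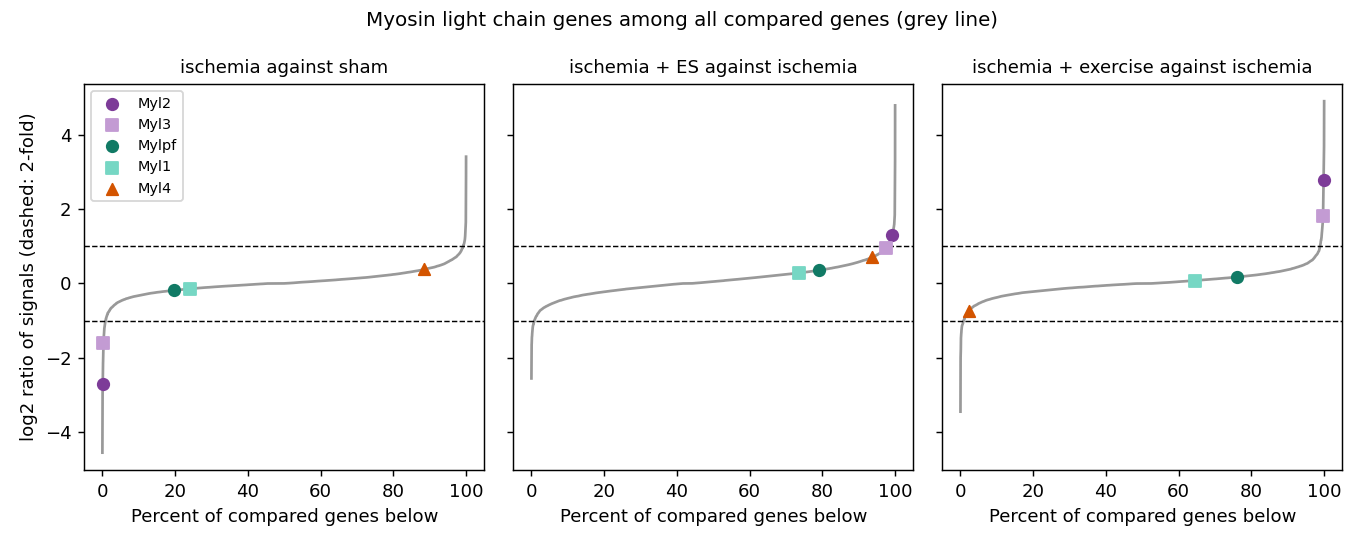
Log2 ratio of every compared gene in rank order (grey line) with the 5 myosin light chain genes marked, for ischemia against sham, ES against ischemia and exercise against ischemia, with dashed lines at 2-fold. Myl2 and Myl3 sit at the lower end for ischemia against sham and at the upper end for exercise against ischemia, while Mylpf and Myl1 lie between 19.6% and 79.0% of the genes in all 3 panels.

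The heavy chains that carry these light chains were read next. The shares of all compared genes past 2-fold given above for each comparison are the background for the list counts from here on. Of 9 sarcomeric heavy chain genes listed, 8 were compared. With ischemia against sham 1 was past 2-fold lower (Myh7) and 1 higher (Myh8), with a median of -0.17, and with exercise against ischemia 1 was higher (Myh7) and 0 lower, with a median of 0.01. With ES against ischemia 2 were higher (Myh8 and Myh3) and 0 lower, with a median of 0.43.

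Myh7, the slow heavy chain that binds Myl2 and Myl3, had signals of 11340, 2970, 4827 and 12422 on the sham, ischemia, ES and exercise arrays, the same order of arrays as Myl2 and Myl3. Its second probe set read 1543, 102.3, 110.7 and 1657. The ES array was thus 1.62-fold above ischemia on the brighter probe set and at a log2 ratio of 0.11 on the other. Both Myl2 (2.47-fold) and Myl3 (1.95-fold) had larger ratios than Myh7 in that comparison.

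The fast heavy chains Myh2, Myh1 and Myh4 stayed within 2-fold on their brightest probe sets in all 6 comparisons, as Mylpf and Myl1 did. Myh2, the type IIa chain, read 10914, 8834, 12600 and 9284 in the order above, and Myh4, the type IIb chain, 12841, 13178, 10366 and 13339. Myh4 was lowest with ES, where Myh2 was highest. Myh1, the type IIx chain, was highest with ES at 8851, but one of its dimmer probe sets was lowest there, at 376 against 663 with ischemia. The embryonic chain Myh3 read 170, 180, 617 and 150 and the perinatal chain Myh8 36.9, 86.4, 2393 and 45.0. Both were highest with ES, the array on which Myl4 was highest too.

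Regulators of the light chains were read from a list of 12 genes of kinases, phosphatase subunits and calmodulin, of which 8 were compared. With ES against ischemia 1 was past 2-fold lower and 0 higher, with a median of 0.11, and with ES against exercise 1 was again lower, with a median of 0.08. In the other 4 comparisons 0 of 8 passed 2-fold. The gene past 2-fold was Mylk2, the skeletal muscle kinase that phosphorylates the regulatory chains. Its brightest probe set read 2664 in sham, 3345 with ischemia, 1337 with ES and 3014 with exercise, so ES was low and the other 3 were close. ES was 2.50-fold below ischemia, 2.25-fold below exercise and 1.99-fold below sham, the last just short of 2-fold. The other probe set of Mylk2 read 551, 802, 411 and 782, lowest with ES as well. Its log2 ratios for ES were -0.96 against ischemia, -0.93 against exercise and -0.42 against sham, and did not reach 2-fold. The brightest probe set is one marked as open to cross-hybridization.

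**Figure D4:**
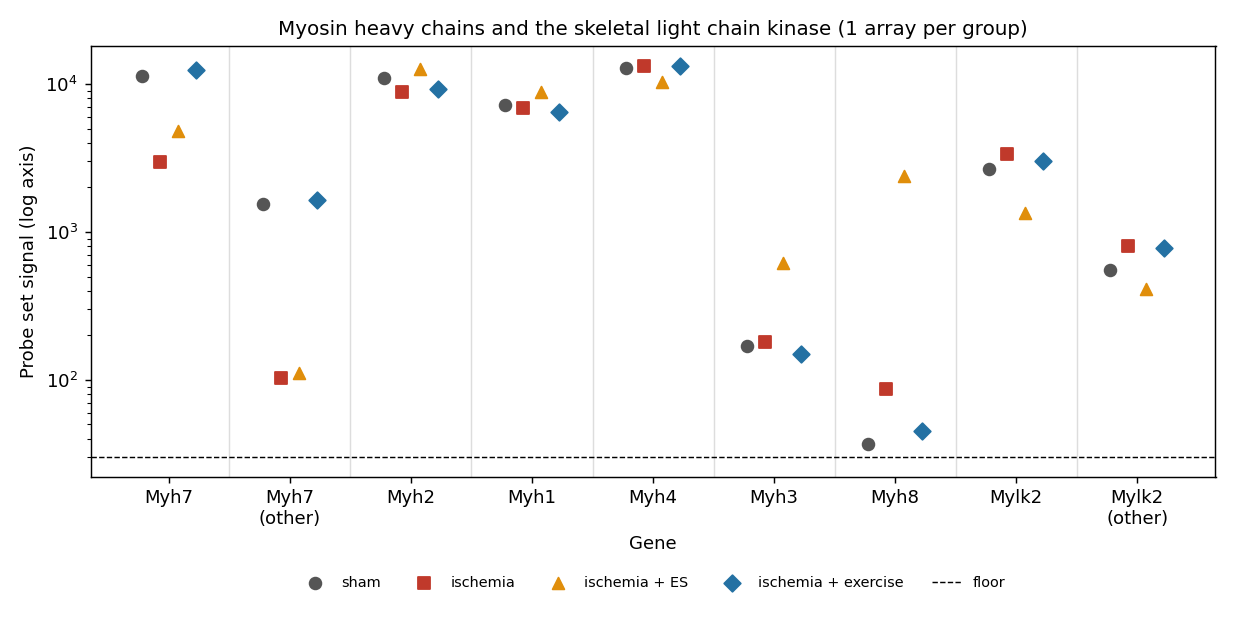
Probe set signal (log axis) of 6 myosin heavy chain genes and of the light chain kinase gene Mylk2, 1 point per array, with a second probe set where drawn and the floor of 30.1 as a dashed line. Myh7 is high on the sham and exercise arrays, Myh3 and Myh8 are highest with ES, and Mylk2 is lowest with ES on both of its probe sets.

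Ppp1cb, the catalytic subunit of myosin phosphatase, read between 4735 and 5403 on the 4 arrays. Mylk, the kinase of smooth muscle and other cells, read 385, 287, 481 and 342. Of the other myosin light chain genes, 3 of 8 listed were compared and 0 passed 2-fold in any of the 6 comparisons. Myl9, a regulatory chain of smooth muscle, read 464, 385, 591 and 423, highest with ES. Myl12a and Myl12b, regulatory chains of nonmuscle myosin, stayed between 3805 and 5664 and between 441 and 576. Myl7, the atrial regulatory chain, was below the floor on all 4 arrays, while the atrial and embryonic essential chain Myl4 was above it on all 4.

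Of 9 compared genes of myosin binding proteins and myosin assembly, 1 was past 2-fold higher with ischemia against sham and 0 passed 2-fold in the other 5 comparisons. This was Mybph, a myosin binding protein gene, with signals of 1164, 2380, 1307 and 1210, high with ischemia and 2.05-fold above sham. Mybpc1, the slow myosin binding protein, read 9191, 8212, 9578 and 9077, and Mybpc2, the fast one, 10424, 11209, 10707 and 10645, so neither followed the slow light chains on its brightest probe set. The second probe set of Mybpc2 was lowest with ES, at 1666 against 3354 with ischemia, a log2 ratio of -1.01.

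Other genes of the slow fibre followed Myl2 and Myl3 in direction. Of 9 compared slow fibre genes 8 were past 2-fold lower with ischemia against sham (median -2.83) and 8 higher with exercise against ischemia (median 3.11), with Mybpc1 as the exception both times. Among the 8 was Tpm3, whose brightest of 12 probe sets read 3756 in sham and 160 with ischemia. Its other probe sets above the floor on all 4 arrays read 360, 264 and 100 in sham and 352, 278 and 81.6 with ischemia. These did not reach 2-fold in either comparison. With ES against ischemia 3 were higher, namely Casq2, Myoz2 and Tnni1 (median 0.92), and with exercise against sham 0 passed 2-fold (median 0.19). Of 13 compared fast fibre genes 0 passed 2-fold in any of the 6 comparisons. Of 13 compared genes of embryonic and regenerating fibres, 5 were past 2-fold higher with ES against ischemia (median 0.65). Among them was Myog, a myogenic transcription factor, at 3.23-fold. The myogenic factors Myod1 and Myf6, also among the 13, had log2 ratios of -0.26 and 0.01 for ES against ischemia. With exercise against ischemia 2 of the 13 were lower (median -0.32). With ES against exercise 8 of these 13 were higher and 0 lower (median 1.42). Myl4 itself is on none of these lists.

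Markers of other cells differed between the same arrays. Of 7 macrophage markers 4 were past 2-fold higher with ischemia against sham and 5 lower with exercise against ischemia, and their summed signal was 1385 in sham, 3432 with ischemia, 4262 with ES and 1440 with exercise. Of 5 compared tendon markers 1 was past 2-fold higher with ischemia against sham and 3 lower with ES against ischemia, with sums of 1371, 2228, 1180 and 2081. Of 10 smooth muscle and pericyte markers 1 was lower with ischemia against sham, and 2 were higher and 1 lower with ES against ischemia. Their sums were 2283, 1863, 2832 and 2084. Of 3 erythroid markers 0 passed 2-fold with ischemia against sham or with either treatment against ischemia, with sums of 10600, 7151, 6898 and 7179. Against sham 1 of these 3 was past 2-fold lower with ES and 1 with exercise. Of the 8 fibre markers 1, Actn2, was past 2-fold higher with ES against ischemia, at 2.33-fold. Actn2 was also 1.79-fold lower with ischemia than in sham. The sum of the 8 fibre markers was 77537, 72527, 83763 and 80550.5 on the sham, ischemia, ES and exercise arrays. With arrays scaled to the median of these markers, Actn2 among them, Myl2 and Myl3 stayed past 2-fold lower with ischemia against sham. The part of the other markers in the light chain ratios was not tested.

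The genes most like each member that ranged at least 2-fold were taken by the root mean square distance between log2 signals over the 4 arrays, after each gene's mean was removed, among 8773 genes above the floor on all arrays. Only 4 arrays stand behind each distance. For Myl2 they were Tnni1, the slow inhibitory troponin (0.17), Atp2a2, the slow calcium pump (0.23), Lmod2, a leiomodin of striated muscle (0.24), Myoz2, a Z-disc protein (0.25), and Tnnc1, the slow calcium-binding troponin (0.27). Myl3 was rank 15 from Myl2, at 0.46. Tnni1 read 6929 in sham, 977 with ischemia, 2224 with ES and 8435 with exercise, next to 6516, 995, 2455 and 6814 for Myl2. The second probe set of Tnni1 lay at 0.35 from Myl2, and the other probe sets of Atp2a2 at 0.59 to 1.14. The Atp2a2 probe set at 1.14 was below the floor on all 4 arrays, so its distance was set by the floor. The one at 0.71 was above the floor on 2 arrays.

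For Myl3 the closest genes were Fgfrl1 (0.12), Myh10, a nonmuscle myosin heavy chain (0.13), Rcan1, an inhibitor of the phosphatase calcineurin (0.15), Nceh1 (0.18) and Pdlim1, a PDZ and LIM domain protein (0.19). They were dimmer than Myl3, with signals between 74.1 and 703. Rcan1 read 584, 203, 319 and 559 on the sham, ischemia, ES and exercise arrays. Myl2 was rank 119 from Myl3, at the same 0.46.

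For Myl4 the closest genes were Dbn1, an actin-binding protein (0.05), Adam19, a membrane metalloprotease (0.05), Col15a1, a basement membrane collagen (0.06), Armcx4 (0.07) and C1qtnf6 (0.09). Col15a1 read 514, 714, 1059 and 438, next to 419, 546, 887 and 329 for Myl4, and its second probe set lay at 0.06 from Myl4 as well. The 3 other probe sets of Adam19 were dim and lay at 0.39 to 0.53. Those at 0.53 were below the floor on all 4 arrays, so that distance was set by the floor. Seen from Myl4, Myl2 and Myl3 were among the most distant genes, at rank 8760 and 8727 of 8773.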

How the data were processed

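Skeletal muscle RNA of 4 samples was read on 1 array each, after 3′-primed cRNA labelling per the labels' protocols. The authors deposited a linear intensity for each probe set, and the submitters' processing notes name MAS5 alone. Of 31099 probe sets, 20832 carried a single symbol (annotation of 2016), 436 carried several and 9831 carried none. Of those with a single symbol, 20764 probe sets had a gene identifier found in RefSeq (GRCr8). The number of arrays limits the precision.

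Signals were scaled to equal 2% trimmed means, raised to the 50th percentile (30.1) where lower, and put on a log2 scale in Python 3.11.15. Each gene's brightest probe set was used, a ratio of 2-fold was the threshold, and values at the floor give bounds. The calling steps were run on simulated arrays without noise, and no model was fitted. Such a run checks the code and cannot show how often calls between single arrays are wrong. Alternatives were quantile and cyclic loess normalization (limma 3.58.1), floors at the 30th and 70th percentile, thresholds of 1.5-fold and 3-fold, the mean of probe sets, and omission of probe sets marked for cross-hybridization. Scaling to fibre markers and no floor were chosen after seeing the data.

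Members, lists and motifs were chosen with earlier results of these data known. The text names the members, a set of heavy chain, kinase and binding protein genes, up to 4 genes per list and comparison with the largest ratios past 2-fold, and the 5 genes closest to each member that ranged at least 2-fold. The markers, Ppp1cb, Myl7, Myl12a, Myl12b, Mylk, Myod1 and Myf6 were named outside this rule after their values were seen. Myl6, whose probe set has several symbols, and the promoter of Myl2 were not used here.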

Additional observations from a re-analysis of the deposited data

Results flagged for a closer look

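Myl4 stood out because the ES array lay above and the exercise array below the ischemia array. Against the ischemia array its log2 ratio was 0.70 with ES and -0.73 with exercise, neither of them past 2-fold, and that of ES against exercise was 1.43, past 2-fold. The 5 genes closest to Myl4, which were chosen for their likeness to it, had the same directions. The signals were 546 with ischemia, 887 with ES and 329 with exercise. With 1 array per group the difference was not tested.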

How the results depend on the processing

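Of 300 log2 ratios of members under 10 other settings, 287 stayed on their side of the threshold of the setting. Another 8 that had passed 2-fold fell short of that threshold, 5 newly passed it, and 0 that had passed 2-fold changed sign. The 5 passed a threshold of 1.5-fold, and no ratio short of 2-fold reached 2-fold under any setting. Among the 8 were unchanged ratios of Myl2 and Myl4 set against the threshold of 3-fold. Many of the 300 ratios could not change, since a threshold does not alter a ratio and the signals used lie far above the floor. The counts of members past 2-fold were within 1.5 times for ischemia against sham, exercise against ischemia and exercise against sham under all 10. For ES against ischemia the count of 1 was 3 at 1.5-fold, where 1465 of 10092 compared genes passed, and 0 at 3-fold, where 34 did. It was 0 with the mean of probe sets (225 of 10098 genes), where the dim probe set of Myl2 was at the floor on both arrays and lowered its ratio by construction. For ES against exercise the count of 2 was 0 at 3-fold (67 of 10092 genes). For ES against sham the count of 2 was 0 at 3-fold (78 of 10092 genes). There it was 1 (Myl4) with the mean of probe sets (373 of 10098 genes) and 1 (Myl2) with arrays scaled to the fibre markers (396 of 10075 genes). The count of members by range, 3, was 2 at 3-fold and 3 under the other settings. The log2 ratio of Myl1 for exercise against ischemia changed sign, to -0.01 under quantile normalization and -0.06 with fibre marker scaling. The cause was not tested beyond the settings' own construction. The background counts moved by over 1.5 times with the floor and the threshold. For ischemia against sham the 166 genes past 2-fold became 43 to 2044, for ES against ischemia 310 became 34 to 2178, for exercise against ischemia 203 became 54 to 2155, for ES against exercise 409 became 67 to 2324, for ES against sham 488 became 78 to 2436 and for exercise against sham 45 became 6 to 1833, the highest each time with no floor. Scaling to the fibre markers moved the median of all compared genes to 0.13 for ischemia against sham, -0.17 for ES against ischemia and -0.13 for exercise against ischemia. The share of higher genes among those past 2-fold then became 66.2% (47.6% as reported), 34.2% (74.2%) and 42.1% (56.7%), and 60.2% (72.9%) for ES against exercise and 65.2% (78.1%) for ES against sham. For exercise against sham it was 57.8%, and 47.8% under quantile and 47.7% under cyclic loess normalization. Signals near the floor, such as the dim probe set of Myl2, give bounds only. No paired analysis was possible because each group had 1 array and no result came from a test.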
